A study of Mus musculus with 4 samples.

Results

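The genes described here encode enzymes that cut or crosslink the extracellular matrix and the inhibitors of those enzymes. They were picked by a rule on gene symbols, set with earlier results of these data known. Their shares beside those of all genes below are therefore descriptive. The rule took the matrix metalloproteinases (Mmp), the tissue inhibitors of metalloproteinases (Timp), the ADAMTS proteases, the ADAMTS-like proteins and the lysyl oxidases (Lox and Loxl). It left out 1 Mmp gene. This gave 55 of the 23282 gene rows measured in mouse gastrocnemius muscle. Reads were found for 43 of them in at least 1 library, and 33 had a normalized read count of 16 or more in some library.

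Matrix metalloproteinases are zinc-dependent endopeptidases that cleave collagens, laminins, fibronectin and other matrix proteins, most of them secreted and some anchored in the cell membrane, and the TIMPs bind and block them. Most ADAMTS proteases are secreted and either cleave proteoglycans or remove the end peptides of procollagens, while ADAMTS-like proteins lack the catalytic domain. Lysyl oxidases oxidize lysines of collagen and elastin so that the fibres become crosslinked. In muscle this matrix surrounds each fibre, carries force to the tendon and is laid down mainly by fibroblasts.

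The study crossed high-intensity treadmill exercise (E) with a tumor (T) in male mice of the CDF1 strain. The tumor came from CT26, a mouse colorectal cancer cell line, injected through the tail vein. The sedentary groups were normal control (E-T-) and, with the tumor, cancer control (E-T+). The exercised groups were normal exercise (E+T-) and, with the tumor, cancer exercise (E+T+). Cancer-bearing mice were also imaged after an injection of MMPSense680, a fluorescent reagent that matrix metalloproteinases activate. The labels give postnatal day 28, which the methods give as the age at purchase, before the exercise and tumor period, so the age at sampling is not settled. Each group had 1 library. The series text names 10 mice per group, whereas the results text of the study describes a representative mouse from each group, so the number of animals behind a library is not settled. No difference below has a replicate check, and no p-value is given.

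The libraries were made by 3′ mRNA sequencing, in which reads come from the end of the transcript and their number does not scale with transcript length. The libraries without the tumor held 11269726 reads (sedentary) and 13225944 (exercised), and those with it 10647418 and 11026805. All 10 muscle fibre markers had reads in every library. The cancer control library stood apart in keratinocyte markers, whose summed normalized read count was 775 there against 200 and 196 in the libraries without the tumor and 87.0 in cancer exercise, and it enters both the tumor comparison without exercise and the exercise comparison with tumor. Because bulk muscle was sequenced, fewer cells of a type and less RNA per cell cannot be told apart.

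Values are normalized read counts as the authors scaled them. Where 4 values follow each other, they are those of the sedentary and the exercised library without the tumor, then of the sedentary and the exercised library with it. Fold changes are differences of log2(normalized read count + 1), a scale that understates the change of low genes. A gene was called changed when it differed at least 2-fold and reached a normalized read count of 4 in at least 1 of the 2 libraries compared. The values of 2-fold and 4 are those the study names, while the pseudocount and the demand on 1 of the 2 libraries were set here. Ranges in brackets are 95% Clopper-Pearson intervals of the ratio of reads, on the log2 scale (those of shares, in percent), and cover counting error only. The floor used for genes without reads was 3 reads, or 2.27e-05% to 2.82e-05% of a library. Where libraries with and without the tumor are said not to overlap, the share of all genes that separate in this way was not counted.

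A cluster on chromosome 9 holds 9 of the Mmp genes kept by the rule. They span positions 7272514 to 7699585 (GRCm38, the mm10 build of the files). The cluster is shown first because 2 of these 9 genes, Mmp3 and Mmp12, reached the minimum count and were higher with the tumor. No reads were found for 6 of the 9. Promoter sequence came from RefSeq (GRCm38.p6), as windows reaching 250 bases upstream of each start site. The search covered 36 of the 55 genes, and the other genes were not tested for a motif. The letters TGANTCA, a loose form of the AP-1 site, were searched in both strands (the motif is its own reverse complement). They were found for 8 of these 36 genes, and all 8 lie in the cluster, whereas 6.75% of the 32851 promoters in the table hold them. The windows are written 5′ to 3′ on the strand of the gene, and the capitals mark the motif.
Mmp13 (chr9:7272459-7272500, plus strand): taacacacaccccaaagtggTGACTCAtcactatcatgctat
Mmp12 (chr9:7347310-7347351, plus strand): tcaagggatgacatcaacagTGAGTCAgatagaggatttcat
Mmp1b (chr9:7388098-7388139, minus strand): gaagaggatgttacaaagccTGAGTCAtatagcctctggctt
Mmp3 (chr9:7445756-7445797, plus strand): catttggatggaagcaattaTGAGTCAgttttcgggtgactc
Mmp1a (chr9:7464048-7464089, plus strand): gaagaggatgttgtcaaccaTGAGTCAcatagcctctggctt
Mmp10 (chr9:7502259-7502300, plus strand): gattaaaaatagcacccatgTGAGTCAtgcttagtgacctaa
Mmp20 (chr9:7628116-7628157, plus strand): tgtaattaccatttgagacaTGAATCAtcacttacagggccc
Mmp7 (chr9:7692007-7692048, plus strand): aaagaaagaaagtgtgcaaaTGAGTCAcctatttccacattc
The motif lay 46 bases before the start site in Mmp3, 44 bases in Mmp12 and 35 bases in Mmp13, with the other 5 between 63 and 95 bases. Mmp1a, Mmp1b, Mmp7, Mmp10 and Mmp20 carry the same letters and had no reads in any library, so the match did not separate the genes with reads from those without. The letters TTCNNNGAA, a loose form of the site of STAT factors, were searched in the same way (they too are their own reverse complement) and were found for 1 of the 36 genes, Mmp23, and in 7.02% of all promoters. A match is a description of the sequence and says nothing about binding.

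Summed over the 55 genes, reads made up 0.157% of all reads in normal control and 0.137% with exercise, and 0.141% in cancer control and 0.125% with exercise. Inhibitors took the largest part, with 61.5%, 67.7%, 53.9% and 51.6% of these reads in the same order. The plot of values by library shows the 33 genes that reached 16. The 12 genes without reads in any library were Mmp1a, Mmp1b, Mmp7, Mmp10, Mmp20, Mmp21, Mmp25, Mmp27, Mmp28, Adamts18, Adamts19 and Adamtsl2.

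**Figure D1:**
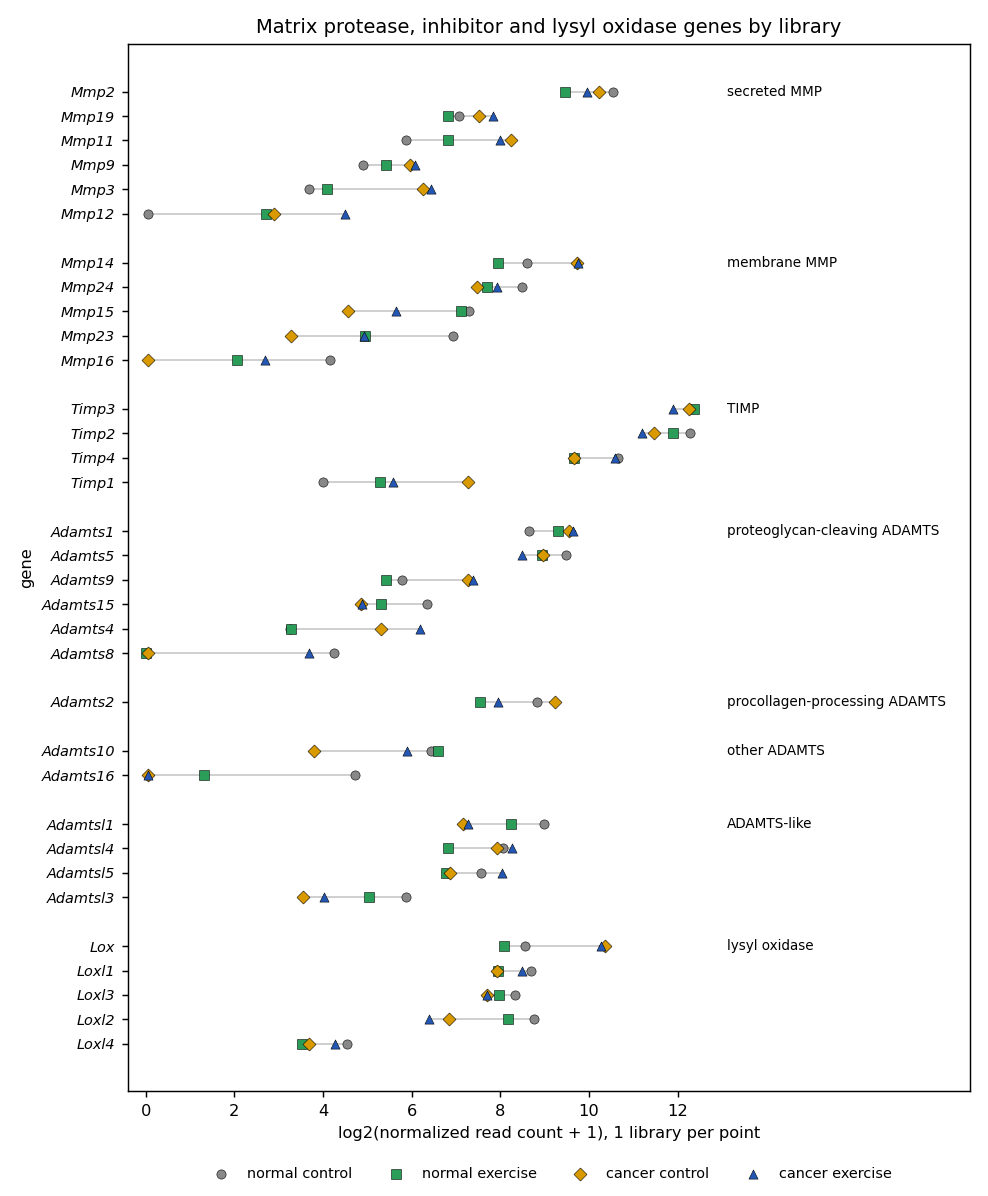
The 33 genes that reached a normalized read count of 16 in any library, grouped by role (vertical axis), against log2(normalized read count + 1) (horizontal axis). Each point is 1 library, its colour and shape give the group, and the grey line spans the 4 libraries. Both tumor libraries lie right of both others for Lox, Mmp14, Mmp3 and Adamts9, and left of both for Loxl2 and Mmp15.

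Among the secreted metalloproteinases, Mmp2 (gelatinase A) was the most abundant. Its normalized read count was 1495 in normal control and 696 with exercise, and 1198 in cancer control and 998 with exercise. It was lower with exercise in healthy mice, with a log2 fold change of -1.10 [-1.23 to -0.98], and it was not called in the other comparisons. Mmp2 supplied 54.0% of the reads of the Mmp genes kept by the rule in normal control and 35.0% in cancer exercise.

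Mmp3 (stromelysin 1), which cleaves proteoglycans and activates other metalloproteinases, had values of 11.8 in normal control and 16.1 with exercise, and 74.9 in cancer control and 85.5 with exercise. The tumor libraries were the high ones, and the groups with and without tumor did not overlap. The log2 fold change with the tumor was 2.57 [1.75 to 3.75] without exercise and 2.34 [1.68 to 3.19] with exercise, while exercise moved it by 0.42 in healthy mice and 0.19 in tumor-bearing mice.

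Mmp11 (stromelysin 3) had values of 57.5, 112, 302 and 254 in the 4 libraries. Its log2 fold change with the tumor was 2.37 [1.97 to 2.84] without exercise and 1.18 [0.88 to 1.5] with exercise. It shares 155 exon bases with Chchd10 on the opposite strand, which had between 12003 and 21554 reads per library. The strand setting of the counting is not stated, so reads of these genes cannot be told apart within the shared bases.

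Mmp12, the macrophage elastase, had 0, 7, 6 and 20 reads in the 4 libraries. It was called higher in all 4 comparisons. From 6 to 20 reads in tumor-bearing mice the log2 fold change was 1.60 [0.38 to 3.36], and from 7 to 20 reads in exercised mice it was 1.77 [0.63 to 3.42]. Against the 0 reads of normal control it was at least 1.78-fold higher with exercise and at least 2.01-fold higher with the tumor, taking 3 reads as the floor. Mmp12 shares 157 exon bases with Mmp1b on the opposite strand, which had no reads.

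Mmp9 (gelatinase B), a gelatinase of neutrophils and macrophages, had values of 28.8, 42.1, 61.0 and 66.0. The tumor libraries were higher than both others, but only the comparison without exercise passed 2-fold, with a log2 fold change of 1.06 [0.40 to 1.81] against 0.64 [0.09 to 1.21] with exercise. Mmp19 had 133, 111, 182 and 226, and it passed 2-fold in 1 comparison, the tumor with exercise, at 1.02 [0.71 to 1.35]. Mmp19 shares 789 exon bases with Tmem198b on the opposite strand, and the reads of the pair were nearly equal in each library (125 and 120, 137 and 123, 170 and 162, 209 and 184), so reads of these genes cannot be told apart. Mmp13 had 3 reads in normal control and 0 elsewhere.

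The membrane-anchored metalloproteinases split. Mmp14 (MT1-MMP), which activates the Mmp2 proenzyme and cleaves collagen at the cell surface, lies on chromosome 14 (54431612 to 54445364). Its values were 384 in normal control and 245 with exercise, and 846 in cancer control and 861 with exercise, with no overlap between libraries with and without tumor. The log2 fold change with the tumor was 1.14 [0.96 to 1.32] without exercise and 1.81 [1.62 to 2.01] with exercise. Of the reads of the Mmp genes kept by the rule, Mmp14 made up 13.9% and 15.2% without the tumor and 29.4% and 30.2% with it.

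Mmp15 (MT2-MMP) ran the other way, with values of 155, 137, 22.6 and 48.8. Its log2 fold change with the tumor was -2.73 [-3.52 to -2.12] without exercise and -1.47 [-2.0 to -1.01] with exercise. Between the tumor libraries it was higher with exercise, at 1.08 [0.34 to 1.94], but stayed below both libraries without tumor.

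Mmp23, a type II membrane metalloproteinase, had values of 121 in normal control and 29.9 with exercise, and 8.63 in cancer control and 29.3 with exercise. Exercise went with a log2 fold change of -1.98 [-2.59 to -1.47] in healthy mice and of 1.65 [0.59 to 3.12] in tumor-bearing mice. The exercised libraries were almost equal, and the sedentary ones stood above and below them. Mmp16 (MT3-MMP) had 16.9, 3.14, 0 and 5.44, the third value meaning no reads, so that normal control was again the highest library and cancer control the lowest. Mmp24 (MT5-MMP) had 357, 207, 176 and 243, but it shares 637 exon bases with BC029722 on the opposite strand and both had almost the same reads (336 and 343, 255 and 255, 164 and 177, 224 and 225). Mmp17 was low throughout, with 8.63 as its highest value, and was called higher with exercise in tumor-bearing mice at 1.18 [-0.63 to 3.98], an interval that holds 0.

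Among the inhibitors, Timp3 and Timp2 had by far the most reads of the 55 genes. Timp3, which binds to the matrix and also blocks ADAMTS proteases, had values of 4921, 5285, 4867 and 3786. Timp2, which also takes part in Mmp2 activation, had 4990, 3829, 2810 and 2347. Neither passed 2-fold in any comparison. Timp3 shares 1733 exon bases with Syn3 on the opposite strand, which had at most 41 reads. The largest of their fold changes was -0.83 [-0.9 to -0.76], that of Timp2 with the tumor in sedentary mice.

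Timp4, known for its expression in heart, muscle and fat, had values of 1613 in normal control and 805 with exercise, and 813 in cancer control and 1523 with exercise. Normal control and cancer exercise were high, and normal exercise and cancer control were low. The 4 log2 fold changes were -1.0 [-1.12 to -0.89] for exercise without tumor, -0.99 [-1.12 to -0.86] for the tumor without exercise, 0.90 [0.78 to 1.04] for exercise with tumor and 0.92 [0.8 to 1.04] for the tumor with exercise. The first lies just inside the 2-fold threshold and the others just outside it, so the count of calls says little about this gene. The summed fat cell markers were 38386, 21675, 12632 and 26756. This sum is mostly Fabp4 and Cfd. Against normal exercise, Cfd (log2 fold change 1.16) and Adipoq (0.57) were higher in cancer exercise, as Timp4 was, while Fabp4 hardly moved (0.06). The other 5 of the 8 markers were lower there. The part of fat cells in the Timp4 values was not tested.

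Timp1, the inducible inhibitor, lies on the X chromosome (20870166 to 20874735) within Syn1, with no shared exon bases. It had values of 14.9 in normal control and 38.0 with exercise, and 154 in cancer control and 46.6 with exercise. The cancer control library was the high one. Timp1 was higher with exercise in healthy mice at 1.29 [0.47 to 2.33], higher with the tumor without exercise at 3.28 [2.58 to 4.28] and lower with exercise in tumor-bearing mice at -1.70 [-2.25 to -1.23]. With exercise, the tumor moved it by 0.29 [-0.34 to 0.92], which is within counting error. Its share of Timp reads was 0.129%, 0.383%, 1.78% and 0.605%, so that Timp1 was a small part of the inhibitor reads in every library.

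The proteoglycan-cleaving ADAMTS genes were led by Adamts1 and Adamts5, both aggrecanases and versicanases. Adamts1 had values of 399 in normal control and 627 with exercise, and 746 in cancer control and 801 with exercise. Adamts5 had 708, 486, 497 and 360. Neither gene passed 2-fold in any comparison, but their fold changes had opposite signs in each of the 4, with that of Adamts1 for exercise with tumor, 0.10 [-0.05 to 0.26], within counting error. As a result Adamts1 made up 36.0% of the reads of the pair in normal control [33.1% to 39.0%] and 56.3% with exercise [53.7% to 59.0%], and 60.0% in cancer control [57.1% to 62.8%] and 69.0% with exercise [66.2% to 71.8%]. This share, like the others given here, was chosen after the values were seen.

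Adamts9 and Adamts4 were higher in the tumor libraries. Adamts9, a versicanase, had values of 54.3, 42.0, 153 and 165, and its log2 fold change with the tumor was 1.48 [1.03 to 1.99] without exercise and 1.94 [1.5 to 2.45] with exercise. Adamts4, an aggrecanase induced by inflammatory cytokines, had 8.56, 8.76, 38.5 and 71.4, with log2 fold changes of 2.05 [1.05 to 3.5] and 2.89 [2.07 to 4.07]. The libraries with and without tumor did not overlap for either gene, which also holds for, among others, Mmp9, Mmp11, Mmp19 and Adamts1.

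Adamts15 was highest in normal control, with 79.7, 38.9, 27.9 and 28.2, and was called lower with exercise in healthy mice at -1.02 [-1.59 to -0.49] and with the tumor without exercise at -1.48 [-2.22 to -0.86]. Adamts8 had 17 reads in normal control and 0 with exercise, and 0 in cancer control and 11 with exercise. Compared with normal control it was at least 7.43-fold lower in normal exercise and at least 5.63-fold lower in cancer control. Cancer exercise was at least 3.71-fold higher than cancer control and at least 4.90-fold higher than normal exercise. Adamts20 had values of 11.6, 5.67, 0 reads and 4.36, and was called lower with the tumor without exercise and higher with exercise in tumor-bearing mice, the latter on 4 reads against 0 and an interval that holds 0.

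Of the 3 procollagen-processing proteases, Adamts2 was the most abundant. It removes the amino-terminal peptide of fibrillar procollagens and lies on chromosome 11 (50602084 to 50807573). Its values were 451 in normal control and 186 with exercise, and 599 in cancer control and 245 with exercise. Both exercised libraries were below both sedentary ones, and the log2 fold change with exercise was -1.27 [-1.51 to -1.04] in healthy mice and -1.29 [-1.52 to -1.07] in tumor-bearing mice, or 2.41-fold and 2.44-fold lower. The tumor moved it by 0.41 [0.23 to 0.6] and 0.39 [0.12 to 0.66]. Adamts3 had values of 15.9, 6.47, 0 reads and 3.29, and Adamts14 had 14.8, 7.32, 2.18 and 0 reads, so both were highest in normal control.

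The other ADAMTS genes were low. Adamts10, which binds fibrillin, had values of 86.1, 95, 12.9 and 58.5, with cancer control as the low library. It was lower with the tumor without exercise at -2.65 [-3.76 to -1.86] and higher with exercise in tumor-bearing mice at 2.10 [1.27 to 3.22], while the tumor with exercise moved it by -0.69 [-1.19 to -0.22]. Adamts16 had 24 reads in normal control, 2 with exercise and 0 in both tumor libraries, and in healthy mice its log2 fold change with exercise was -3.40 [-7.10 to -1.97].

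Adamts6, Adamts7, Adamts12, Adamts13 and Adamts17 stayed under 16 in every library. Adamts13, the von Willebrand factor-cleaving protease, was highest in cancer control at 10.6, as were Adamts6 at 7.36 and Adamts7 at 8.51. All 3 were called higher with the tumor without exercise and lower with exercise in tumor-bearing mice, and Adamts7, at 0 reads in cancer exercise, was also called lower with the tumor in exercised mice. For Adamts7 the rise with the tumor without exercise was 1.18 [-0.63 to 3.97], an interval that holds 0. With a pseudocount of 4 it was 0.8, and this call ended. Adamts7 shares 122 exon bases with Tbc1d2b on the opposite strand, which had between 127 and 199 reads per library. Adamts12 was highest in cancer exercise at 6.43, and was called higher with exercise in both comparisons on intervals that hold 0. Adamts17 had a highest value of 2.11 and reached the minimum in no comparison.

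ADAMTS-like proteins bind fibrillin microfibrils and other matrix parts and have no protease activity. Adamtsl1 had values of 507, 301, 141 and 153, and its log2 fold change with the tumor was -1.84 [-2.13 to -1.56] without exercise and -0.97 [-1.27 to -0.69], just outside the threshold, with exercise. Adamtsl3 had 57.4, 31.6, 10.8 and 15.2, with log2 fold changes of -2.31 [-3.56 to -1.44] and -1.01 [-2.06 to -0.15]. For both genes the tumor libraries were below both others.

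Adamtsl4 and Adamtsl5 did not share this order. Adamtsl4 had values of 266, 112, 240 and 305, with normal exercise as the low library, so that it was lower with exercise in healthy mice at -1.24 [-1.56 to -0.94] and higher with the tumor in exercised mice at 1.44 [1.15 to 1.75]. Adamtsl5 had 188, 108, 116 and 261, and cancer exercise was the high library. It was higher there than in cancer control at 1.17 [0.84 to 1.52] and than in normal exercise at 1.27 [0.96 to 1.59].

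The lysyl oxidases changed in composition. Lox, the founding member, on chromosome 18, had values of 375 in normal control and 268 with exercise, and 1321 in cancer control and 1234 with exercise. The tumor libraries were far above the others, with a log2 fold change of 1.81 [1.64 to 1.99] without exercise (3.51-fold) and 2.20 [2.02 to 2.38] with exercise (4.59-fold). Exercise moved Lox by -0.48 [-0.71 to -0.26] in healthy mice and -0.10 [-0.22 to 0.02] in tumor-bearing mice.

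Loxl2, which crosslinks the collagen IV of basement membranes and lies on chromosome 14 (69609068 to 69695834), had values of 434, 289, 114 and 82.4. The log2 fold change with the tumor was -1.92 [-2.26 to -1.62] without exercise and -1.80 [-2.19 to -1.45] with exercise. Lox therefore made up 24.0% [21.8% to 26.3%] and 25.2% [22.9% to 27.7%] of lysyl oxidase reads without the tumor and 69.8% [67.6% to 71.9%] and 64.9% [62.7% to 67.2%] with it, while Loxl2 went from 27.8% and 27.1% to 5.99% and 4.33%.

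The remaining family members changed less. Loxl1, needed for elastic fibre renewal, had 409, 246, 240 and 357 and passed 2-fold in no comparison. Loxl3 had 322, 250, 208 and 208, and it shares 535 exon bases with Htra2 on the opposite strand, which had 230, 272, 185 and 167 reads. Loxl4 was low, with 22.3, 10.5, 11.8 and 18.4, and was called lower with exercise in healthy mice at -1.03 [-2.20 to -0.02]. The summed normalized read count of the family was 1563, 1063, 1894 and 1900.

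**Figure D2:**
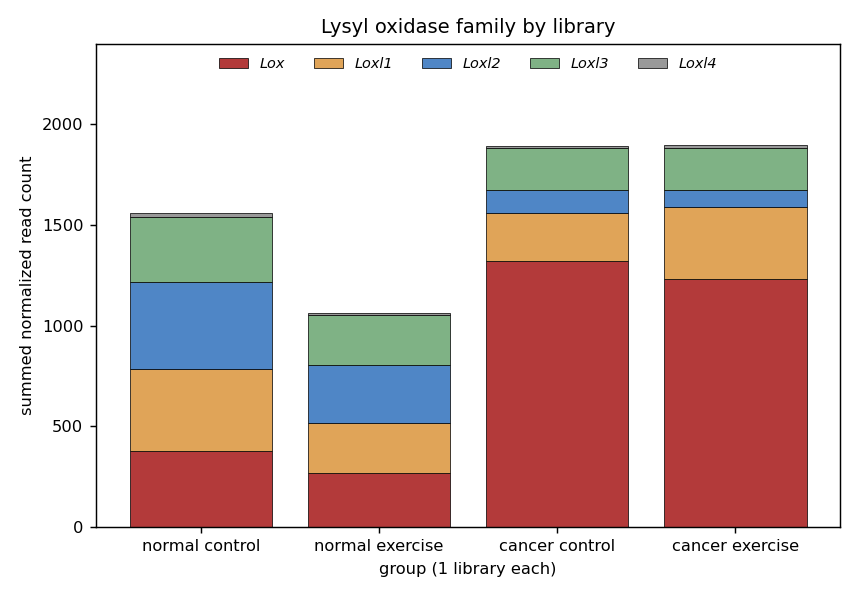
Stacked bars of the normalized read counts of the 5 lysyl oxidase genes (vertical axis, from 0) in the 4 libraries (horizontal axis, 1 library per group, no error bars). Lox fills 268 to 375 of the bar without the tumor and 1234 to 1321 with it, while the Loxl2 segment narrows from 289 or more to 114 or less.

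The effect of the tumor was asked separately in sedentary and exercised mice. Without exercise, 12 of the 40 genes that reached the minimum were higher (30.0%), beside 20.9% of all genes tested, and 14 were lower (35.0%), beside 24.2%. With exercise, 11 of 38 were higher (28.9%), beside 13.9%, and 5 were lower (13.2%), beside 16.3%. The median log2 fold change was -0.66 without exercise and 0.46 with it, against -0.04 and -0.03 over all genes. With genes without reads set to the floor, the first became -0.67.

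These comparisons share no library. Higher in both were 7 of the 37 genes tested in both (18.9%), beside 6.90% of all genes. They were Lox, Mmp3, Mmp11, Mmp12, Mmp14, Adamts4 and Adamts9. Lower in both were 4 (10.8%), beside 8.30% of all genes, and these were Loxl2, Mmp15, Adamts14 and Adamtsl3. In the comparison that leaves out cancer control, Lox, Mmp14, Adamts4 and Adamts9 had a larger fold change than in the one that uses it, and Mmp3, Mmp11, Loxl2, Mmp15 and Adamtsl3 a smaller one. Mmp12 and Adamts14 had a library without reads.

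**Figure D3:**
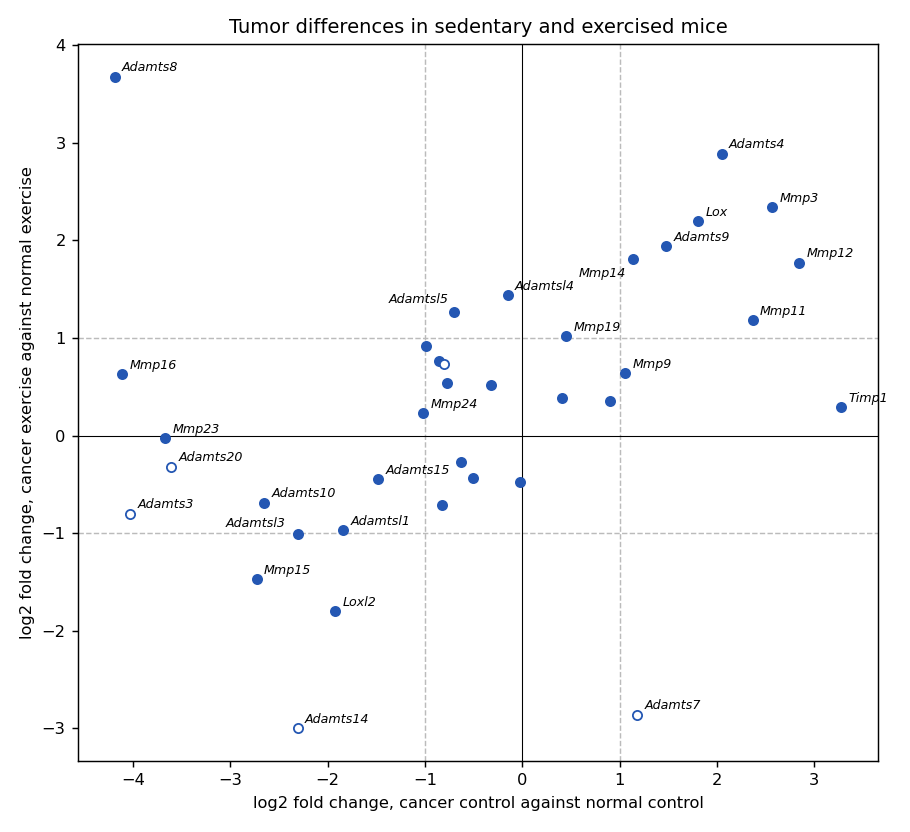
Log2 fold change with the tumor in sedentary mice (horizontal axis) against that in exercised mice (vertical axis) for the 37 genes tested in both. Each point is 1 gene (filled, at least 16 in a library), dashed lines mark 2-fold, and fold changes of genes without reads in a library, such as Adamts8 and Mmp16, depend on the pseudocount. The 7 genes higher in both lie at the upper right and the 4 lower in both at the lower left.

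The effect of exercise was likewise asked without and with the tumor. In healthy mice 3 of 39 genes were higher (7.69%), beside 9.44% of all genes, and 11 were lower (28.2%), beside 12.1%. In tumor-bearing mice 10 of 38 were higher (26.3%), beside 15.6%, and 5 were lower (13.2%), beside 15.1%. Of the 10 higher, 6 had a counting interval that leaves out 0, and 5 reached a minimum of 16. The median log2 fold change was -0.59 in healthy mice and 0.15 in tumor-bearing mice, against -0.01 and 0.01 over all genes.

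By 2-fold calls, Adamts12 and Mmp12 were higher with exercise in both comparisons, 2 of 36 (5.56%), beside 1.87% of all genes, on at most 20 reads. Adamts2 was the 1 gene lower in both (2.78%), beside 2.80%, so its share is close to the background. Its normalized read count was 186 or more in each library. Opposite directions were found for 4 genes (11.1%), beside 4.99% of all genes. Mmp16, Mmp23 and Adamts8 were lower with exercise in healthy mice and higher in tumor-bearing mice, and Timp1 did the reverse. The rise of Mmp16 rests on 5 reads against 0, and its interval holds 0.

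**Figure D4:**
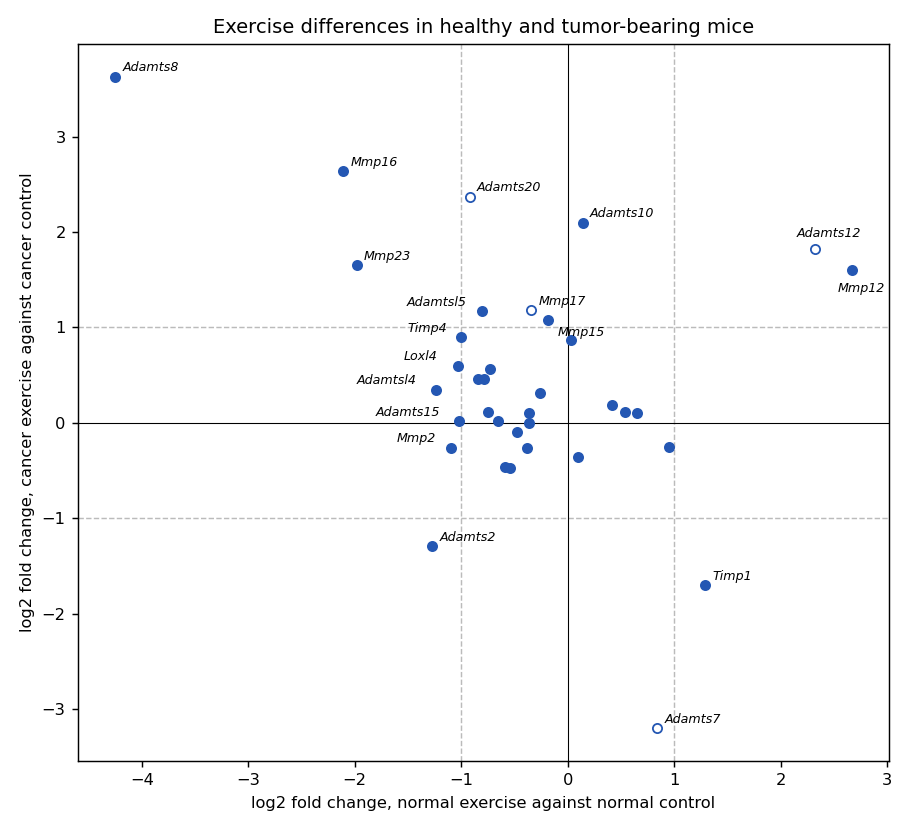
Log2 fold change between exercised and sedentary libraries without the tumor (horizontal axis) and with it (vertical axis) for the 36 genes tested in both. Each point is 1 gene (filled, at least 16 in a library), and dashed lines mark 2-fold. Adamts2 sits at the lower left (-1.27 and -1.29), Timp1 at the lower right, and Adamts8, Mmp16 and Mmp23 at the upper left, Adamts8 with fold changes that depend on the pseudocount.

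Scaling to total reads shifted all genes by 0.16 for exercise without tumor, 0.07 for the tumor without exercise, -0.07 for exercise with tumor and -0.16 for the tumor with exercise. It ended the calls of Mmp2 (-0.94), Timp4 (-0.84), Loxl4 (-0.87) and Adamts15 (-0.86) for exercise in healthy mice, of Mmp24 (-0.95) for the tumor without exercise and of Mmp19 (0.87) for the tumor with exercise. In healthy mice this left 4 genes higher and 7 lower with exercise. It added Mmp11 (1.11) for exercise in healthy mice and Adamtsl1 (-1.13) for the tumor with exercise. None of the 7 genes higher and 4 lower with the tumor in both comparisons, nor Adamts2, lost a call under total reads. With a pseudocount of 4, Adamtsl3 lost its call for the tumor with exercise (-0.89), and the other 10 genes and Adamts2 kept theirs. Adamts14 reached 16 in no library, and Mmp12 reached it only in cancer exercise.

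Of 23 genes tested for substrates of these enzymes, 0 were higher and 12 lower with the tumor without exercise (median log2 fold change -1.45), beside 24.2% of all genes lower. With exercise 0 were higher and 7 lower (median -0.48), beside 16.3%, and 16 passed in neither direction. Exercise left 0 higher and 10 lower in healthy mice, beside 9.44% and 12.1% of all genes. In tumor-bearing mice it left 5 higher and 0 lower, beside 15.6% and 15.1%. Col1a2, a chain of type I collagen, had values of 13178, 2453, 574 and 789, and Dcn, the collagen-binding proteoglycan decorin, had 57888, 37431, 35363 and 34756. Col4a1, of basement membranes, had 2070, 1239, 1611 and 2215, and Comp, a cartilage and tendon matrix protein, had 175, 66, 0 and 11 reads. The study selected other collagens of this list from these same libraries, so the list is not independent evidence of its direction. One of them, Col1a1, the study describes as increased with exercise and decreased with cancer. Here Col1a1 had values of 9741, 1096, 124 and 377. It was lower with exercise in healthy mice (log2 fold change -3.15) and higher with exercise in tumor-bearing mice (1.59).

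Lox was higher and Col1a2 lower in the tumor libraries than in those without the tumor, while exercise in healthy mice went with lower values of both. Of 16 genes of collagen maturation, which modify, fold or trim procollagen, 1 was higher and 8 lower with the tumor without exercise. With exercise 2 were higher and 3 lower. Over all genes, 20.9% were higher and 24.2% lower without exercise, and 13.9% and 16.3% with it. P4hb, a subunit of prolyl 4-hydroxylase and a general disulfide isomerase, was higher in both tumor libraries, with 1347, 1376, 2816 and 2850. Pcolce, an enhancer of procollagen C-proteinases, had 1442, 851, 545 and 702, and its relative Pcolce2 had 797, 500, 330 and 293. In healthy mice exercise gave 1 higher and 1 lower, beside 9.44% and 12.1% of all genes. In tumor-bearing mice it gave 3 higher and 0 lower, beside 15.6% and 15.1%.

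A list that joins plasminogen system genes with other protease regulators had 6 higher and 2 lower of 14 with the tumor without exercise. The 6 are not all genes of the plasminogen system. All genes had 20.9% and 24.2%. With exercise it had 2 and 2 of 12, beside 13.9% and 16.3%. Exercise gave 1 and 1 of 11 in healthy mice, beside 9.44% and 12.1%. In tumor-bearing mice it gave 0 and 6 of 14, beside 15.6% and 15.1%. Serpine2, an inhibitor of thrombin and plasminogen activators, had 1953, 2214, 885 and 1166, Bsg, an inducer of metalloproteinases, had 2677, 2713, 1589 and 2754, and the endocytic receptor Lrp1 had 1068, 1183, 1048 and 954.

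Of 8 ADAM and astacin genes tested in each comparison, between 0 and 2 were higher and between 0 and 1 lower. Over all genes, between 9.44% and 20.9% were higher and between 12.1% and 24.2% lower. Adam17, a sheddase, had 339, 366, 177 and 400, Adam15 had 515, 439, 646 and 513, and Adam10 had 298, 233, 186 and 138.

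Markers of several cell types moved in the same libraries as these genes. The summed fibroblast markers were 50417, 37273, 13728 and 20798, mostly the single gene Gsn with 34516, 26781, 8050 and 12925. The tumor comparison had 8 of 11 lower in sedentary mice and 6 of 11 in exercised mice. Over all genes, 24.2% and 16.3% were lower in these comparisons. The tendon markers summed to 11475, 5522, 1710 and 4382, with 2 of 9 at 0 reads in cancer control and none in the others, and 8 and 6 of 9 were lower. Loxl2, Mmp15, Adamtsl1 and Adamtsl3 were lower in the same libraries, whereas Lox, Mmp14 and Adamts9 were higher there.

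Macrophage markers summed to 4282, 4212, 7266 and 6543. The tumor comparison had 4 of 10 higher in sedentary mice and 2 in exercised mice, beside 20.9% and 13.9% of all genes. The neutrophil markers summed to 80.1, 163, 2653 and 1888, mostly S100a8 and S100a9, and of the 11 genes 7, 6, 4 and 4 had no reads. Mmp3, Mmp9, Mmp12, Mmp14 and Adamts4 were higher in these libraries. Smooth muscle and pericyte markers summed to 2207, 2376, 1228 and 1875, and endothelial markers to 3807, 5133, 4230 and 5269.

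Keratinocyte markers had 5, 5, 1 and 6 of 8 genes without reads, and their sum was highest in cancer control. Timp1, Adamts13 and Adamts6 were likewise highest there, as were Adamts7, Adamts2, Lox and Mmp11. Markers of epithelial tumor cells summed to 86.1, 46.8, 308 and 113, with 3, 3, 3 and 4 of 8 at 0 reads. In cancer control most of this sum was Krt20, which had 0, 0, 177 and 52 reads in the 4 libraries. With the tumor 3 were higher and 1 lower of 6 tested without exercise, beside 20.9% and 24.2% of all genes. With exercise 2 were higher and 0 lower of 4, beside 13.9% and 16.3%. The part of any of these cell types in the values of the proteases, inhibitors and lysyl oxidases was not tested.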

How the data were processed

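Gastrocnemius RNA of 4 groups, 1 library each, was sequenced with a QuantSeq 3′ kit. The authors aligned reads with Bowtie2, counted them with bedtools and applied quantile normalization in edgeR. The submitters' processing notes name mm10. The deposited unit is log2, taken of each normalized read count after adding 1. Groups came from the sample titles.

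Whole reads were rebuilt from the deposited log2 values with 1 scaling factor per library and 1 dispersion (0.34). All values (100%) were matched within 0.0006, and 94.9% to 96.2% per library were tied to a single read count. The procedure was tested on simulated data. A value above 0 can stand for 0 reads, so detection was judged on reads.

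Every gene that reached 16 normalized reads in a library is named, and from each other list the 3 with the highest mean log2 value. A gene past 4-fold in at least 3 of the 4 comparisons, such as Comp, could be added. Outside this rule, Krt20 is named for its part in a sum and Col1a1 because the study tested it. The genes, roles and lists were chosen with earlier results of these data known. Overlaps used GENCODE vM21, promoters RefSeq. Reads have no stated molecular identifiers. Alternatives were scaling, pseudocount, minimum and fold threshold. Python 3.11.15, scipy 1.17.1 and pandas 2.3.3 were used.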

Additional observations from a re-analysis of the deposited data

Results flagged for a closer look

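For 4 genes the effect of exercise went at least 2-fold one way in healthy mice and at least 2-fold the other way in tumor-bearing mice. The log2 fold change with tumor minus that without was 4.75 for Mmp16, 3.64 for Mmp23, 7.88 for Adamts8 and -2.99 for Timp1. Both comparisons rest on 1 library per group, so these differences were not tested. Mmp16 and Adamts8 rest on at most 17 reads per library and include libraries without reads, so their values depend on the pseudocount. Mmp23 and Timp1 had reads in every library.

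For 2 genes the effect of the tumor went opposite ways without and with exercise. The log2 fold change with exercise minus that without was 7.88 for Adamts8, from the same 4 values, and -4.04 for Adamts7, which had 3 reads in normal control, 8 with exercise, 8 in cancer control and 0 with both tumor and exercise. These differences were not tested either. For Adamts7 the rise without exercise was 1.18 [-0.63 to 3.97], an interval that holds 0, and its call ended with a pseudocount of 4 (0.8).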

How the results depend on the processing

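The number of genes called was 14 for exercise without tumor, 26 for the tumor without exercise, 15 for exercise with tumor and 16 for the tumor with exercise. Total read count, median-of-ratios size factors, the fitted scaling without quantile adjustment, a pseudocount of 4, no minimum and the demand that the counting interval leave out 0 kept each count within 1.5 times of these. A threshold of 1.5-fold gave 26 for exercise without tumor and 25 for the tumor with exercise. A threshold of 4-fold gave 5, 17, 6 and 6 in the order above. A minimum of 16 gave 7 for exercise with tumor, where many calls rest on few reads. Of 520 values of single genes recomputed with other scalings or a pseudocount of 4, 484 had a closed counting interval, of which 472 moved by no more than its half-width and 12, all under total read count, moved further. The other 36 had a library without reads and so an open interval, and 9 of them, all with a pseudocount of 4, moved by over 1.5-fold. In all 520, 0 called changes took the opposite sign. The median over the genes kept its sign under the scalings and the pseudocount of 4, and under total read count it was -0.43, -0.59, 0.08 and 0.30. Median-of-ratios size factors ended the calls of Timp4 for exercise in healthy mice and of Mmp24 for the tumor without exercise. No replicate could be left out, and no paired analysis was possible because each group has 1 library. Depth limits the genes under 16 most.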
